A study of Mus musculus with 34 samples.

Results

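Foxp3 binding sites that carry no binding peak of BATF or IRF4 are described here, in mouse regulatory T (Treg) cells profiled by chromatin immunoprecipitation and sequencing. A Foxp3 peak was counted as BATF/IRF4-free when it shared not a single base with any peak of the first BATF table or of the IRF4 table. This held for 2916 of 6396 Foxp3 peaks (45.6%). The other 3480, called shared sites below, consisted of 2143 peaks with both BATF and IRF4, 938 with BATF alone and 399 with IRF4 alone. The levels of Foxp3 were not used to choose the sites. BATF and IRF4 reads are given only within their own peaks, so being BATF/IRF4-free means that no peak was listed and not that no protein was bound. The distance to the nearest BATF or IRF4 peak had a median of 20262 bp, with quartiles of 6926 and 43778 bp, and 215 sites (7.37%) lay within 1000 bp of one. The sites just inside the limit lay near Ptbp2, Ypel2 and Inpp4b, at 6, 7 and 8 bp from such a peak and with mean levels of 28.6, 37.2 and 35.7 normalised reads. Just outside it, the Foxp3 peak near Septin7 touched one (74.1 normalised reads), and those near Tmem192 and Fosl2 overlapped one by about 2 and 7 bp (25.1 and 27.9 normalised reads).

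Foxp3 is a forkhead transcription factor that defines the Treg lineage and represses and activates genes together with partners such as Runx, Ets, NFAT and Tcf family proteins. BATF is a leucine zipper factor of the AP-1 family that pairs with Jun proteins and recruits IRF4, and this complex drives the effector programme of activated T cells. Treg cells occur as central cells, which recirculate through lymphoid organs and keep genes of the naive state, and as effector cells, which are activated and enter tissues.

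Foxp3 was measured in 4 groups of 2 libraries each, in freshly sorted CD4+ cells of C57BL6/J mice. All carried a reporter, Foxp3-IRES-hCD2, that puts human CD2 on the surface of Foxp3-expressing cells, and came from lymph nodes and spleen. Effector Treg cells were gated as low in CCR7, whereas the gate for central Treg cells took low CD44 and high CCR7, with a further surface marker in both gates. Batf-/- and wild-type Treg cells were sorted only by CD4 and hCD2, so central and effector cells were not separated in them; their libraries are called undivided below, and those of effector and central cells subset libraries. The Batf-/- mice also carried the reporter; binding data do not read out Batf itself, so its loss was not checked. Binding per cell and the share of cells that bind cannot be told apart in such bulk samples. BATF in Treg cells with the Foxp3 mutation R397W (Foxp3R397W-IRES-hCD2/Foxp3-IRES-GFP) and in their controls (Foxp3WT-IRES-hCD2/Foxp3-IRES-GFP), both sorted as hCD2+GFP-, came from a second BATF table. That table also holds the Treg (hCD2+) and conventional T cells (hCD2-) of the first BATF table, and IRF4 was measured in Treg and conventional T cells. Reads in Foxp3 peaks ranged from 164740 to 393310 per library, and a value of 3 reads was 1.73 to 4.0 normalised reads. Nothing states that libraries of a group came from separate animals, so p-values measure only the spread between these libraries, which may be technical.

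Of the 2916 sites, 34 overlapped a promoter window, the 250 bases before to 50 after a gene start, among 21263 windows of RefSeq (build GRCm38.p6, the same assembly as mm10). The windows of 6 of them are shown because the values below return to these genes. The Eola1 window (chrX:70385663-70385962, plus strand) carries the strongest such site, which gene bodies assign to Ids, and the Foxp3 (chrX:7579426-7579725, plus strand) and Il2 (chr3:37125905-37126204, minus strand) windows belong to genes named by rule. The Foxp1 (chr6:99266466-99266765, minus strand), Satb1 (chr17:51833241-51833540, minus strand) and Ccr8 (chr9:120091883-120092182, plus strand) windows were chosen after their values were seen. Capitals mark matches, on either strand, to a forkhead motif (TGTTTAC), its core (TAAACA, which every full forkhead match contains) or a TTTG repeat (TTTGTTT), the kind of repeat that Foxp3 is known to bind.
Eola1 promoter window: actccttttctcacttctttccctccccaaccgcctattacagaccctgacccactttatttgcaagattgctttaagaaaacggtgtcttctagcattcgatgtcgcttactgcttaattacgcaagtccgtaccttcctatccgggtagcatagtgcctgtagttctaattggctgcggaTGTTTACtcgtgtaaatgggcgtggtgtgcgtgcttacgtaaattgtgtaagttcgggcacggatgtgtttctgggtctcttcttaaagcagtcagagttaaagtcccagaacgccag
Foxp3 promoter window: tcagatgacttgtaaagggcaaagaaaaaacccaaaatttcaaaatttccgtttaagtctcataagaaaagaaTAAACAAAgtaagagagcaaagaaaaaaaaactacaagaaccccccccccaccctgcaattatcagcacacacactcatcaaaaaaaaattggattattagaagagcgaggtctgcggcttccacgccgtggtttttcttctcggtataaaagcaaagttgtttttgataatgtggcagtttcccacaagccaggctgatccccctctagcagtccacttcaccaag
Foxp1 promoter window: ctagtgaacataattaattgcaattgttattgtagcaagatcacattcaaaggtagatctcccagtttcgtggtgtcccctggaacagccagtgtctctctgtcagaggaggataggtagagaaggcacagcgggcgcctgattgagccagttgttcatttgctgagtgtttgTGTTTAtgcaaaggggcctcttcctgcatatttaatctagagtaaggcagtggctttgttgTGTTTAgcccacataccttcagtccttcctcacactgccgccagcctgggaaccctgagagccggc
Satb1 promoter window: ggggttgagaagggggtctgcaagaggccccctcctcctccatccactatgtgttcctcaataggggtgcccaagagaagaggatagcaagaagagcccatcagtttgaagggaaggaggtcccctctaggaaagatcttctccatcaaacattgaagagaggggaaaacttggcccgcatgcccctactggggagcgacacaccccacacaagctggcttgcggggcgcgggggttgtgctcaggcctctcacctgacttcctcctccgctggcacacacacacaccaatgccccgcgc
Ccr8 promoter window: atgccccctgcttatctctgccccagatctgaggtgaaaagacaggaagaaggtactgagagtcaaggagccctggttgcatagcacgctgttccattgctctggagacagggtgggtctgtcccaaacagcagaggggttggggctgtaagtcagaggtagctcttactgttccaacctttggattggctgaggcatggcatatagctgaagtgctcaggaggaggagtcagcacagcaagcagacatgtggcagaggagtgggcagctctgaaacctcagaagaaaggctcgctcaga
Il2 promoter window: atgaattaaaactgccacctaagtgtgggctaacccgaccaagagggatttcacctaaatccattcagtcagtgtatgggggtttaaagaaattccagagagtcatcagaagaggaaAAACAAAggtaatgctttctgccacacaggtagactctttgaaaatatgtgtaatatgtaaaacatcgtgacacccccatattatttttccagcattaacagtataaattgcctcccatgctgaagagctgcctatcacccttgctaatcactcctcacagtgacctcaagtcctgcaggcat

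In the Eola1 window a forkhead match stood at -68 relative to the gene start. The Foxp3 window held a forkhead core match at -177 that ran into a TTTG repeat match at -176, and the Foxp1 window held forkhead core matches at -77 and -16. The Il2 window held a TTTG repeat match at -133. The Il2 match lies outside the Foxp3 peak, which overlaps only the 74 bases of the window farthest upstream. The Satb1 and Ccr8 windows held none of the 3 motifs. Among the 34 windows with a BATF/IRF4-free site, 10 (29.4%) held the TTTG repeat, against 46 of 438 windows (10.5%) with a shared site and 8.23% of all windows. The forkhead core was in 26.5%, 17.1% and 11.5% of them, and the full forkhead motif in 8.82%, 8.68% and 3.01%. The Ets motif CCGGAAG was in 1 of 34 windows (2.94%) with a BATF/IRF4-free site, in 27.2% of those with a shared site and in 11.6% of all. The SP/KLF motif GGGCGG was in 32.4%, 57.3% and 46.2%, and the NF-Y motif CCAAT in 52.9%, 27.4% and 38.2%. Shares in the same order were 5.88%, 6.16% and 4.71% for the RUNX motif TGTGGTT, 2.94%, 5.48% and 6.99% for the AP-1 motif TGANTCA, 2.94%, 6.39% and 3.84% for the CRE motif TGACGTC, 2.94%, 6.62% and 4.44% for the NRF1 motif GCATGCG and 14.7%, 14.6% and 6.24% for the YY1 motif AAGATGG. Base composition differed as well, with a median GC content of 51.5% in windows with a BATF/IRF4-free site, 59.0% in those with a shared site and 56.3% in all. The median ratio of observed to expected CpG was 0.441, 0.815 and 0.567 in the same order. These shares describe 34 windows and were not tested. They count matches anywhere in a window, also outside the Foxp3 peak.

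As a class, BATF/IRF4-free sites had lower medians than shared sites in every library, with a wider gap in the undivided Treg cells than in the subsets. Their median level was 26.6 and 24.2 normalised reads in the libraries of effector Treg cells and 25.3 and 25.2 in those of central Treg cells. It was 17.3 and 18 in Batf-/- and 17.2 and 15.9 in wild-type Treg cells. Shared sites had medians of 34.2 and 34.6 in effector, 36.0 and 34.1 in central, 43.7 and 42.5 in Batf-/- and 43.5 and 44.3 in wild-type Treg cells. The ratio of the medians was therefore 0.700 to 0.778 in the 4 subset libraries and 0.358 to 0.424 in the 4 undivided ones, with no overlap, while Batf-/- and wild-type libraries lay side by side. Reads at BATF/IRF4-free sites made up 35.3% to 37.0% of the reads in Foxp3 peaks in the subset libraries and 23.4% to 25.8% in the undivided ones. With all Foxp3 peaks split by mean level into 4 classes of equal size, 1404 BATF/IRF4-free sites were in the lowest. Their medians were 19.6 to 22.8 in subset and 10.9 to 13.2 in undivided libraries. In the highest class, the 172 BATF/IRF4-free sites had 44.3 to 55.6 and 57.6 to 63.0, and shared sites 48.1 to 53.1 and 72.1 to 76.0. Across single sites, 740 (25.4%) were higher in all 4 subset than in all 4 undivided libraries, where 14.9% of all Foxp3 peaks were, and 206 (7.06%) were lower in all 4, where 18.2% of all were. Subset libraries had 164740 to 393310 reads in peaks and undivided ones 198741 to 316698. The part of depth or of the sort in this split was not tested.

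**Figure D1:**
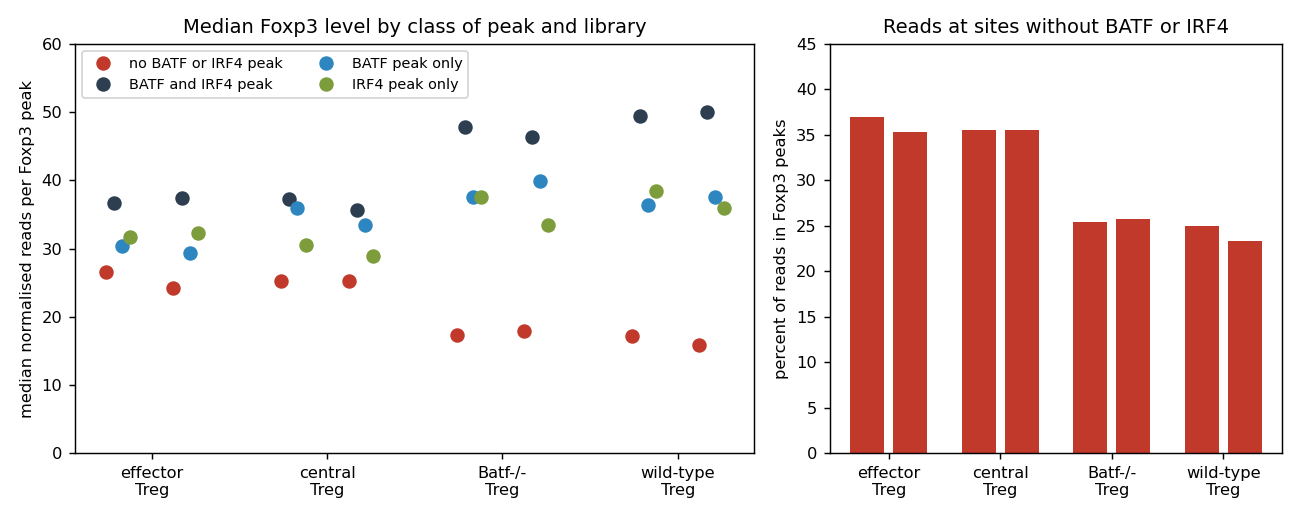
Left, median normalised Foxp3 reads per peak in each of 8 libraries (1 point a library and class of peak). Right, percent of reads in Foxp3 peaks that fell on BATF/IRF4-free sites, 1 bar a library; the 4 subset libraries reach 35.3% to 37.0% and the 4 undivided ones 23.4% to 25.8%.

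Sites of this class lay away from gene starts and inside genes. A gene start was within 1000 bp for 74 of 2845 sites with a known distance (2.6%), against 15.5% of shared sites. Among shared sites this share was 17% with both factors, 15.6% with BATF alone and 7.16% with IRF4 alone. The difference was present among sites above the median level of all Foxp3 peaks too, at 5.8% of BATF/IRF4-free and 16.0% of shared sites. The median distance to a start was 34348 bp for BATF/IRF4-free and 26530 bp for shared sites. Inside a gene body lay 2334 BATF/IRF4-free sites (80.0%) and 63.4% of shared sites. Among sites above the median level this gap was smaller, at 70.8% and 63.9%. Sites without a known distance include 70 on chromosome 18, whose promoter windows were not used here. Only gene starts with a promoter window were counted, and some genes have none, so true distances can be shorter in both classes. For a site within Ikzf2 the nearest counted start was that of Spag16, 289150 bp away. For a site within Ets1 it was that of Kcnj1, 334518 bp away.

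**Figure D2:**
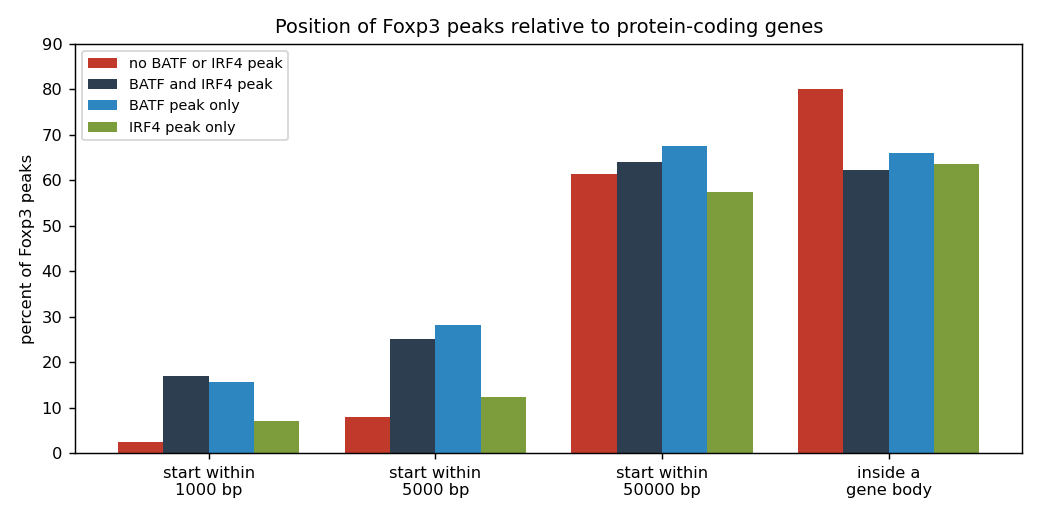
Percent of Foxp3 peaks, by class, with a protein-coding gene start within 1000, 5000 or 50000 bp and inside a gene body. Only starts with a promoter window were counted. BATF/IRF4-free sites are at 2.6% within 1000 bp and 80.0% inside gene bodies.

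Many of the sites stood in rows along long genes, a pattern that was chosen for description after the values were seen. The next BATF/IRF4-free site was within 10 kb for 1455 of them (49.9%), with a median distance of 10062 bp. For shared sites the next shared site was within 10 kb for 28% and at a median of 38012 bp. There were 119 genes that held 5 or more BATF/IRF4-free sites in their body, together 1013 sites (34.7%), while 41 genes held 5 or more shared sites, together 7.3% of those. The median length of the 119 genes was 77.7 kb, against 64.4 kb for the 877 genes with 1 to 4 sites, 52.9 kb for genes with a shared site in the body and 17.2 kb for all 21887 protein-coding genes. No other Foxp3 peak was assigned to 75 of the 119 genes.

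The 3 genes with the most sites were 4932438A13Rik with 29 (189971 bp), Dock10 with 26 (258 kb) and Mycbp2 with 21 (233 kb). Dock10 encodes an activator of small GTPases and Mycbp2 a large E3 ubiquitin ligase. Mean levels over the 8 libraries ranged from 16.7 to 29.5 normalised reads among the sites of 4932438A13Rik, from 13.3 to 50.3 in Dock10 and from 15.2 to 28.2 in Mycbp2. Median spacing within these genes was 3133, 4702 and 4614 bp. The sites of 4932438A13Rik had median levels of 26.6 and 23.6 in effector and 26.6 and 28.9 in central Treg cells, and of 21.3 and 19.3 in Batf-/- and 18.2 and 13.4 in wild-type Treg cells. Next in number, and outside the fixed rule for named genes, came Dock8 with 19, the deubiquitinase genes Usp24 with 18 and Usp34 with 17, and Fryl with 17. Anapc1, a subunit of the anaphase-promoting complex, and Atm, the kinase of the DNA damage response, had 15 each, and Smg1, a kinase of nonsense-mediated RNA decay, had 14. Of all 1013 sites in such genes, 336 (33.2%) were higher in all 4 subset than in all 4 undivided libraries. Of the remaining 1903 sites, 404 (21.2%) were, and of all Foxp3 peaks 14.9%. Lower in all 4 subset libraries were 6 (0.592%) of the 1013, 200 (10.5%) of the 1903 and 18.2% of all Foxp3 peaks.

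**Figure D3:**
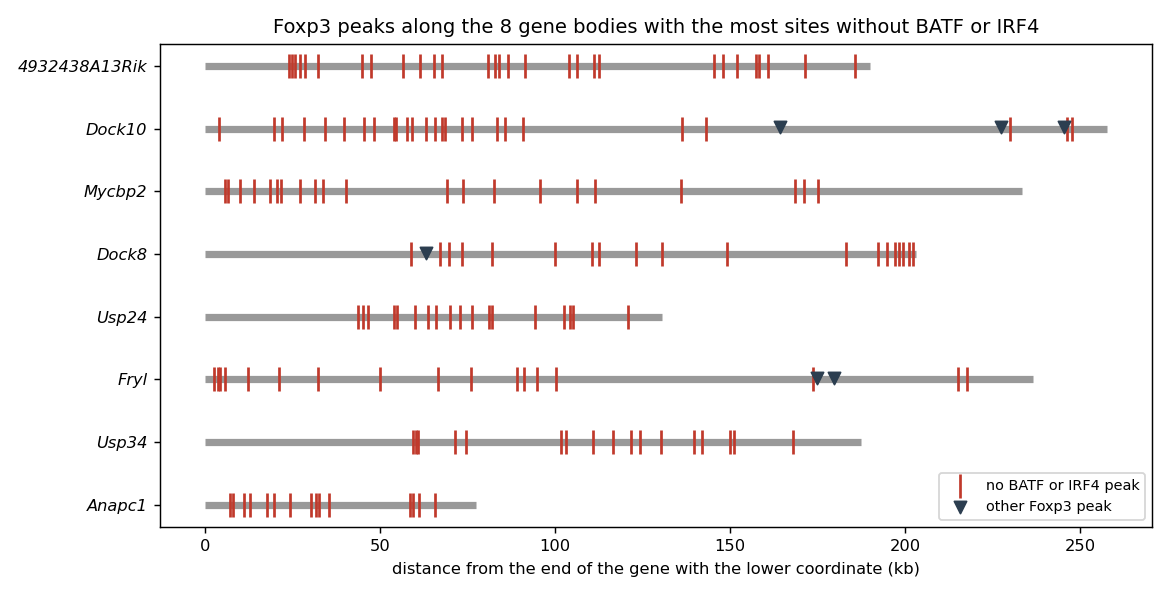
Foxp3 peaks (centres) along the 8 gene bodies with the most BATF/IRF4-free sites, drawn to scale in kb from the end with the lower coordinate. Red ticks are BATF/IRF4-free sites and dark triangles other Foxp3 peaks inside the body; 4932438A13Rik carries 29 ticks and no triangle.

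The strongest BATF/IRF4-free site lay within Aim2, which encodes a sensor of cytosolic DNA (chromosome 1, 173398617 to 173399017). It had 247 and 366 normalised reads in effector and 310.0 and 282 in central Treg cells, and 65.0 and 86.2 in Batf-/- and 62.7 and 73.5 in wild-type Treg cells. The 4 subset libraries were thus all well above the 4 undivided ones. The other 9 of the strongest 10 had mean levels of 92.7 to 116. They lay near Slamf6 (an immune cell receptor), Ids (a lysosomal sulfatase), Art2b (an ADP-ribosyltransferase), Vamp4 (a SNARE protein), Sv2b (a vesicle protein), Add3 (adducin of the membrane skeleton), Nsmce1 (a subunit of the SMC5/6 complex) and Sgk1 (a kinase of the AGC family), and 1 had no protein-coding gene within 100000 bp. Of the 10, 7 passed neither comparison of the 4 groups, and the 3 that did were lower in effector Treg cells. The site without a gene (chromosome 9, 32962750 to 32963150) had 17.7 and 25.4 in effector against 58.6 and 96.4 in central Treg cells (log2 fold change -1.78, SE 0.27, adjusted p = 3.27e-05). In Batf-/- it had 229 and 170.0, against 143 and 135 in wild-type Treg cells (adjusted p = 0.361). The sites near Vamp4 and Sv2b fell by 1.46 and 1.03 on the log2 scale in effector Treg cells (adjusted p = 0.000106 and 0.00292).

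Effector and central Treg cells were compared to see where Foxp3 binding differs between the 2 states. Fold changes are of the value plus 1, and adjusted p-values come from limma over all 6396 Foxp3 peaks. At an adjusted p under 0.05, 367 BATF/IRF4-free sites were higher and 239 lower in effector Treg cells (12.6% and 8.2%), where 15.0% and 10.8% of all Foxp3 peaks were called. The median log2 fold change was 0.01 over BATF/IRF4-free sites and -0.01 over all peaks. Under quantile normalisation the calls were 393 higher and 422 lower, so the share of higher calls was 48.2% instead of 60.6%. Without the first or second effector library the higher calls numbered 213 or 225, and without the first or second central library, or the first effector one, the lower calls numbered 142, 145 or 155.

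The calls were unevenly spread over the sites. Among the 626 sites in genes with 5 or more of them and no other Foxp3 peak, none was higher and 7 were lower (1.12%) by limma; edgeR called 2 higher and 15 lower, DESeq2 called 0 and 3, and at an unadjusted p under 0.05 limma gave 10 and 27. Among the 387 sites in genes with 5 or more of them and other Foxp3 peaks, 31 were higher (8.01%) and 23 lower (5.94%). Among the 1903 sites outside genes with 5 or more, 336 were higher (17.7%) and 209 lower (11%). Of all Foxp3 peaks, 15.0% were higher and 10.8% lower. Outside gene bodies, 149 of 582 sites were higher and 98 lower (25.6% and 16.8%), while inside them the shares were 9.34% and 6.04%. Within 1000 bp of a gene start 7 of 74 were higher and 5 lower. Foxp3 peaks were split by mean level into 4 classes of equal size. In the lowest class 11.4% of BATF/IRF4-free sites were higher and 4.7% lower, against 39.0% and 14.4% of shared sites. In the highest class the shares were 9.88% and 19.2% of BATF/IRF4-free and 14.7% and 15.2% of shared sites.

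The largest rises among sites above the median level were near Zwint, Acsbg1 and Niban2 and at a site with no gene within 100000 bp. The site 33899 bp from Zwint, a kinetochore gene, had 97.6 and 111 normalised reads in effector against 5.33 and 3.71 in central Treg cells (log2 fold change 4.27, SE 0.36, adjusted p = 2.79e-08). Within Acsbg1, which encodes an acyl-CoA synthetase, the values were 76.0 and 76.7 against 7.99 and 2.97 (3.7, SE 0.38, adjusted p = 1.87e-07). The site without a gene (chromosome 10, 17565279 to 17565679) had 55.8 and 67.5 against 1.33 and 5.93, the first of the central values from a single read. Sites of this ranking were chosen with both effector libraries above both central ones, so that separation adds no support. Niban2, Abhd17c, Nek7, Atf7ip and Lin54 completed the 8, with log2 fold changes of 3.19, 3.08, 3.04, 3.00 and 2.53. The sites at Niban2 and Atf7ip carry a BATF peak in the second BATF table, described below. At Abhd17c, Nek7 and Lin54, Batf-/- and wild-type Treg cells had 27.0 to 76.8 normalised reads, all above both central values of the same site.

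The largest falls included a pair of sites near Satb1, a chromatin organiser of T cells. The site 73102 bp outside it (chromosome 17, 51906392 to 51906792) had 10.1 and 10.4 normalised reads in effector against 83.9 and 119 in central Treg cells (log2 fold change -3.17, SE 0.27, adjusted p = 2.79e-08). The second BATF table has a peak over this site (chromosome 17, 51906532 to 51906932), with 51.8 and 60.4 normalised BATF reads in Treg cells. A site within Satb1 had 5.07 and 2.88 against 54.6 and 81.6 (-3.80, SE 0.33, adjusted p = 2.79e-08). Within Slc30a7, a zinc transporter gene, 2.53 and 6.34 stood against 75.9 and 89.0 (-4.03, SE 0.35). The log2 fold changes were -3.05 at Ncoa7, -3.00 at Dgke (a diacylglycerol kinase), -2.97 at Foxp1 and -2.29 at Sik1 (a salt-inducible kinase), and the Dgke site too has a BATF peak in the second table. All 7 were chosen with both effector libraries below both central ones, so that separation adds no support.

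**Figure D4:**
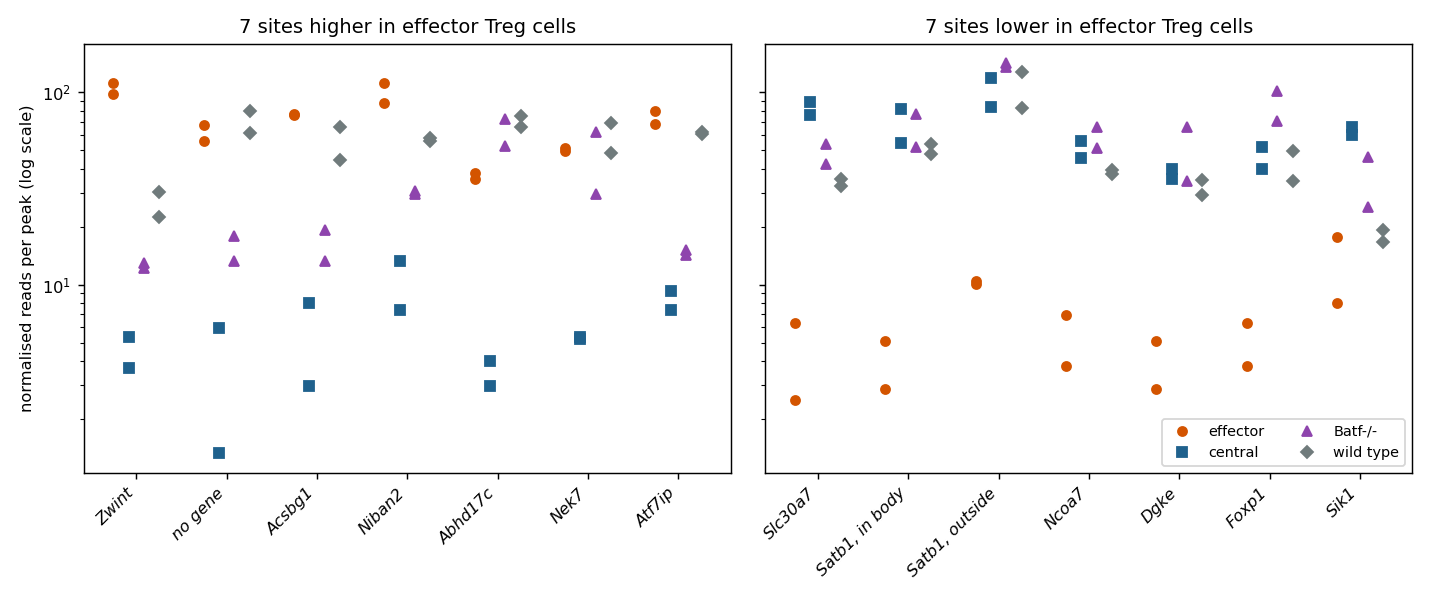
Normalised Foxp3 reads (log axis) in each library at the 7 BATF/IRF4-free sites with the largest rise (left) and the largest fall (right) in effector over central Treg cells, among sites above the median level. Each point is 1 library; at Zwint effector Treg cells have 97.6 and 111 and central Treg cells 5.33 and 3.71.

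Genes of effector Treg cells and of T helper lineages had sites that rose in effector Treg cells. Of 18 BATF/IRF4-free sites of effector Treg genes, 10 rose and none fell, where 15.0% and 10.8% of all Foxp3 peaks were called. The median log2 fold change was 1.21 (-0.01 over all peaks). Shared sites of these genes moved alike, with 23 of 44 higher and 2 lower. Among the 18 BATF/IRF4-free sites other settings differed little in direction. At an unadjusted p under 0.05, 1 of the 18 was lower. Neither edgeR nor DESeq2 called one lower, while 1 fell under quantile normalisation. Without 1 library 7 or 8 rose. Of 10 sites of T helper factors and cytokines, 6 rose and none fell (median 1.01). None fell at an unadjusted p under 0.05 or with edgeR or DESeq2 either. Of 23 shared sites of these genes, 7 rose and 1 fell. With DESeq2, or without the first effector or the first central library, 3 of the 10 rose. Icos, a costimulatory receptor, had 2 of 4 sites higher; the one 30261 bp away had 36.7 and 45 in effector against 9.32 and 8.16 in central Treg cells (log2 fold change 2.10, SE 0.38, adjusted p = 0.000179). Both sites within Il1rl1, the IL-33 receptor gene, rose, and one of them had 31.7 and 33.5 in effector against 5.33 and 5.19 in central Treg cells (2.42, SE 0.39, adjusted p = 5.91e-05). A site 2479 bp from Pdcd1, which encodes PD-1, had 44.3 and 50.2 against 12 and 12.6 (1.86, SE 0.30, adjusted p = 6.67e-05). Within Stat4, a signal transducer of IL-12, 29.1 and 39.2 stood against 10.7 and 2.97 (2.36, adjusted p = 0.000206).

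Some of the sites with rises touched the promoter windows printed above. The Il2 site (chromosome 3, 37126131 to 37126531) had 40.5 and 52.5 in effector against 6.66 and 7.41 in central Treg cells (log2 fold change 2.55, SE 0.38, adjusted p = 2.37e-05). At Ccr8, a chemokine receptor of effector Treg cells, 57.0 and 65.2 stood against 24.0 and 7.41 (2.10, adjusted p = 0.000429). The central libraries of Ccr8 lay wide apart, and both effector values were above both of them. In Batf-/- and wild-type Treg cells the Il2 site had 12.2 and 14.2 against 23.3 and 23.4, and the Ccr8 site 12.2 and 21.9 against 41.5 and 29.2, neither difference past the test (adjusted p = 0.29 and 0.17). The Foxp3 promoter site (chromosome X, 7579306 to 7579706) had 12.7 and 20.8 in effector, 17.3 and 25.2 in central, 40.6 and 55.3 in Batf-/- and 43.5 and 33.4 in wild-type Treg cells. It passed neither test (adjusted p = 0.526 for effector over central and 0.714 for Batf-/- over wild type).

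Of 24 sites of Treg core genes, 6 rose and 2 fell, where 15.0% and 10.8% of all Foxp3 peaks were called. The median log2 fold change was 0.31; without the first or second effector library it was 0.4 or 0.08, and without the first or second central library 0.22 or 0.2. None fell without the second effector library, and 1 fell without any other single library of the 4. The sites that rose belonged to Icos, Ikzf2 (the factor Helios) and Nt5e (the ectoenzyme CD73), and those that fell to Il2ra, the IL-2 receptor alpha chain. The Nt5e site, which has a BATF peak in the second table, had 57.0 and 52.5 in effector against 14.7 and 12.6 in central Treg cells (1.93, SE 0.36, adjusted p = 0.00027). A site within Ikzf2 had 38.0 and 60 against 7.99 and 14.1 (2.07, SE 0.39, adjusted p = 0.000334), while the strongest one there had 34.2 and 44.4 against 26.6 and 38.6 (adjusted p = 0.553). A site 6703 bp from Il2ra had 25.3 and 14.4 against 55.9 and 52.6 (-1.46, adjusted p = 0.00357; adjusted p = 0.0952 without the second effector library), and the strongest Il2ra site, at 46.9 and 45.6 against 58.6 and 49.7, did not pass (adjusted p = 0.614). The strongest sites of Nrp1, Tgfbr2, Runx1 and Ets1 did not pass either, with log2 fold changes of -0.36, -0.17, 0.73 and 0.04.

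Of 60 sites of central or naive T cell genes, 24 were lower and none higher in effector Treg cells, where 10.8% and 15.0% of all Foxp3 peaks were called, and the other 36 did not pass. The median log2 fold change was -0.72 (-0.01 over all peaks). Of 71 shared sites of these genes, 34 were lower and 8 higher. Among the 60 BATF/IRF4-free sites, 3 were higher at an unadjusted p under 0.05. Of these 60, edgeR called 1 higher and DESeq2 none. All 6 sites near Satb1 were lower, with every library left out in turn, and 7 of 9 at Foxp1, a forkhead factor of naive T cells (5 to 7 without 1 library), so these 2 genes gave 13 of the 24 calls. Rapgef6, with 15 sites, and Il6st, with 9, had 1 lower site each. The calls included sites on the promoter windows above. At the Satb1 window 15.2 and 13.8 in effector stood against 71.9 and 44.5 in central Treg cells (-1.89, adjusted p = 0.000167), and at the Foxp1 window 16.5 and 20.8 against 51.9 and 51.9 (-1.44, adjusted p = 0.00043). The site within Lef1 had 19.0 and 21.9 against 67.9 and 79.3 (-1.80, SE 0.26, adjusted p = 2.03e-05). The site 26068 bp from Tcf7 had 16.5 and 23.1 against 63.9 and 70.4 (-1.73, SE 0.28, adjusted p = 5.86e-05). Lef1 and Tcf7 encode related factors of naive T cells.

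**Figure D5:**
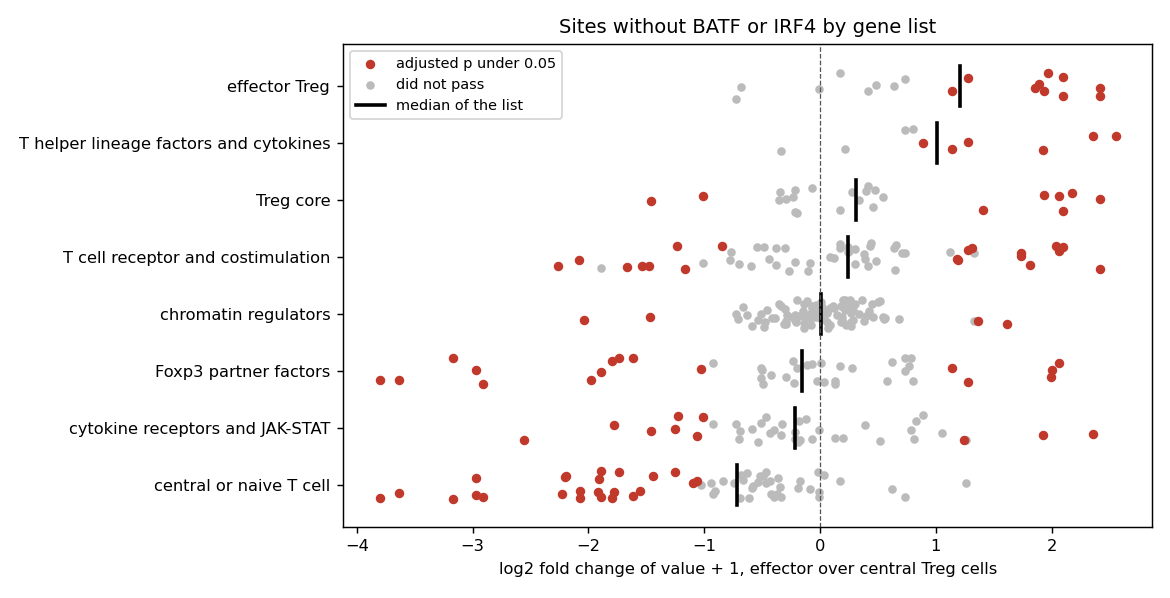
Log2 fold change (effector over central Treg cells) of each BATF/IRF4-free site in 8 gene lists, red where the adjusted p was under 0.05; the black line is the list's median. The median is 1.21 for effector Treg genes and -0.72 for central or naive T cell genes.

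Of 57 sites of T cell receptor and costimulation genes, 11 rose and 8 fell, where 15.0% and 10.8% of all Foxp3 peaks were called. Without the first or second effector library 5 or 7 rose and 3 or 5 fell, and without the first or second central library 8 or 7 rose and 5 or 4 fell. Cd28, the costimulatory receptor, had a site with 7.6 and 4.61 in effector against 37.3 and 28.2 in central Treg cells (-2.27, SE 0.41, adjusted p = 0.000211). A site 98162 bp from Rasgrp1, an activator of Ras, fell by 2.08 on the log2 scale (adjusted p = 0.000575). Another, 65350 bp from it, fell by 1.48 (adjusted p = 0.0116). A site within Rasgrp1 instead rose by 2.07, with 30.4 and 34.0 in effector against 5.33 and 8.9 in central Treg cells (adjusted p = 0.00195). The sites within Rasgrp1 and 65350 bp from it were chosen after their values were seen. Chosen after its values were seen, Ptpn22, a phosphatase that dampens T cell receptor signals, had 5 of 8 sites higher (2 to 3 without 1 library). Of 40 sites of cytokine receptor and JAK-STAT genes, 3 rose and 7 fell, with 2 to 5 lower calls without 1 library. A site within Jak1, a kinase of many cytokine receptors, had 5.07 and 8.65 against 53.3 and 36.3 (-2.56, SE 0.43, adjusted p = 9.41e-05). Of 42 sites of Foxp3 partner factors, 5 rose and 11 fell, with 6 of the 11 at Satb1; without the first effector or the first central library 3 rose.

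Chromatin regulators held many BATF/IRF4-free sites. Of their 137 Foxp3 peaks 93 were BATF/IRF4-free (67.9%), against 45.6% of all Foxp3 peaks. Chd2 had 14 of them, Kmt2e 12, Kdm5a 11 and Chd1 9. The gene list does not hold every chromatin regulator. Outside it, and chosen after the values were seen, Chd9 had 5 of 8 sites higher in effector Treg cells. Srcap with 10 sites, Smarca5 with 9 and Chd8 with 8, also outside it, had none called in that comparison. Housekeeping genes had a high share too, with 8 BATF/IRF4-free and 3 shared peaks (72.7% BATF/IRF4-free). Of the 93 sites of listed chromatin regulators, 2 rose and 2 fell, where 15.0% and 10.8% of all Foxp3 peaks were called. Without the second effector library none rose and 1 fell, and without the first effector or the first central library 1 rose and 2 fell. A site within Arid1a, a subunit of the BAF remodelling complex, had 5.07 and 7.5 in effector against 28.0 and 28.9 in central Treg cells (-2.04, SE 0.40, adjusted p = 0.000434). One 75423 bp from Arid5b had 34.2 and 39.8 against 13.3 and 14.1 (1.37, adjusted p = 0.0031; adjusted p = 0.0508 without the second effector library), and carries a BATF peak in the second table. Of 8 sites in housekeeping genes none was called by limma, edgeR or DESeq2, and 1 was higher at an unadjusted p under 0.05. The site within Eef1a1, a translation elongation factor, had 48.1 and 43.3 against 41.3 and 39.3 (adjusted p = 0.693); it too has a BATF peak in the second table. No BATF/IRF4-free site was found at genes of AP-1, BATF and IRF factors, which had 23 shared ones. Marker genes of B cells and of myeloid cells had no Foxp3 peak at all. Those of CD8 and NK cells had 1 BATF/IRF4-free site, near Gzmk (granzyme K), with 36.7 and 39.2 in effector against 7.99 and 6.67 in central Treg cells (2.23, adjusted p = 0.00308).

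Batf-/- and wild-type Treg cells were compared to see where Foxp3 binding differs in the absence of BATF. Of BATF/IRF4-free sites, 20 were higher (0.686%) and 63 lower (2.16%) in Batf-/- Treg cells, where 0.547% and 3.91% of all Foxp3 peaks were called. For comparison, 7.19% of peaks with both factors, 0.959% of those with BATF alone and 6.02% of those with IRF4 alone were lower. The median log2 fold change was 0.12 over BATF/IRF4-free sites (0.0229 without the second wild-type library) and 0.05 over all peaks. These counts rest on few libraries: without the first or the second wild-type library 24 or 14 sites were higher and 19 or 10 lower. Without the first Batf-/- library 69 were higher and 145 lower, and without the second 12 were higher and 63 lower. With DESeq2 the counts were 3 and 19, and under quantile normalisation 7 and 33. Outside gene bodies 38 of 582 sites were lower (6.53%), inside them 25 of 2334 (1.07%). Among the 626 sites in genes with 5 or more of them and no other Foxp3 peak, 6 were higher and none lower by limma; edgeR called 5 higher and none lower, DESeq2 none either way, and at an unadjusted p under 0.05 limma gave 62 and 12.

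The sites lower in Batf-/- were mostly sites higher in effector Treg cells. Of the 63, 46 (73%) were among the 367 higher in effector Treg cells (12.5% of those) and none was among the 239 lower there. Of all 2916 sites, 12.6% were higher and 8.2% lower in effector Treg cells. The overlap was not counted for shared sites, so it cannot be called particular to BATF/IRF4-free ones. Of the 20 higher in Batf-/-, none was called higher and 3 were called lower in effector Treg cells. The comparisons share no library, but both took their spread from 1 fit. A site 24885 bp from Atf7ip, a partner of the histone methyltransferase SETDB1, had 15.2 and 14.2 normalised reads in Batf-/- against 60.7 and 61.8 in wild-type Treg cells (log2 fold change -1.99, SE 0.31, adjusted p = 0.000217). The second BATF table has a peak over the Atf7ip site (chromosome 6, 136493426 to 136493826), with 54.8 and 36.8 normalised BATF reads in Treg cells. A site within Nkx2-5, a homeobox gene, had 18.3 and 23.2 against 94.0 and 68.5 (-1.91, SE 0.34, adjusted p = 0.000829). These 2 kept their call under every alternative, the only ones of 15 named Batf-/- calls to do so.

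Further falls were at the gene-less site on chromosome 10 (13.2 and 18 in Batf-/- against 61.7 and 79.4 in wild-type Treg cells, adjusted p = 0.00269) and within Acsbg1 (13.2 and 19.3 against 44.5 and 66.0, adjusted p = 0.00809). Rad51b, a recombination gene, had 23.4 and 11.6 against 45.5 and 61.0 (adjusted p = 0.00401). Each of these 3 lost its call without the second wild-type library (adjusted p = 0.0838, 0.168 and 0.102). Trat1 (a T cell receptor adaptor), Cpne7 and Chd7 (a chromatin remodeller) fell by 1.44, 1.37 and 1.35, and lost their calls without either wild-type library. The Chd7 site has a BATF peak in the second table. At effector Treg genes, 3 of 18 sites were lower (0 to 2 without 1 library, 0 with DESeq2). Of all Foxp3 peaks 3.91% were lower in Batf-/-, and of 44 shared sites of effector Treg genes 6 were. The Pdcd1 site had 23.4 and 23.2 against 54.6 and 56.8 (-1.22, adjusted p = 0.0168), and the Icos site 11.2 and 11.6 against 34.4 and 25.1 (-1.29, adjusted p = 0.0483). Without either wild-type library the Pdcd1 and Icos sites lost their calls. A second Icos site, chosen after its values were seen, had 10.2 and 3.86 against 21.2 and 35.1 (-1.94, adjusted p = 0.00913). At all 3 sites every Batf-/- library was below every wild-type one.

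Rises in Batf-/- were small in number. A site within Cmss1 had 72.2 and 100 normalised reads in Batf-/- against 18.2 and 36.8 in wild-type Treg cells (1.68, SE 0.34, adjusted p = 0.00325; adjusted p = 0.107 without the first wild-type library). A site near Mxd1, an antagonist of MYC, had 54.9 and 72.1 against 25.3 and 26.7 (1.24, adjusted p = 0.0258). Within Sh3gl3, an endophilin gene, 179 and 166 stood against 105 and 87.7 (0.84, adjusted p = 0.0457), and a gene-less site on chromosome 13 rose by 1.05 (adjusted p = 0.0496). Mxd1 lost its call without either wild-type library (adjusted p = 0.138 and 0.121), without the second Batf-/- library (adjusted p = 0.167), with DESeq2 (adjusted p = 0.0909) and under quantile normalisation (adjusted p = 0.116), and the last 2 lost theirs without any 1 of the 4 libraries. None of the 60 sites of central or naive T cell genes was called by limma or DESeq2; edgeR called 1 higher, and at an unadjusted p under 0.05 limma gave 6 higher and none lower. The median log2 fold change was 0.41 (0.31 to 0.45 without 1 library; 0.05 over all peaks). At the Satb1 site outside the gene, for example, 141 and 135 in Batf-/- stood against 82.9 and 127 in wild-type Treg cells (adjusted p = 0.457).

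The second BATF table, which did not enter the choice of sites, listed a BATF peak on 138 of the 2916 (4.73%), so for these the name BATF/IRF4-free holds only for the first table. Of the 62 sites named by rule, 8 are among the 138, near Arid5b, Atf7ip, Chd7, Dgke, Eef1a1, Niban2, Nt5e and Satb1. In it, BATF at these 138 had medians of 31.6 and 26.9 normalised reads in Treg and 12 and 13 in conventional T cells, against 38.1 and 37.4 in Treg and 33.8 and 34.3 in conventional T cells over all 9973 peaks. In R397W Treg cells the medians were 22.2 and 21.8, against 40.1 and 45 in their controls. Over all peaks R397W had 37.6 and 36.0 and the controls 40.1 and 41.5. At the 138, BATF was lower in R397W at 25 (18.1%) and higher at none, where 8.04% and 0.612% of all peaks of the table were called. At an unadjusted p under 0.05, 68 were lower and 4 higher, and neither edgeR nor DESeq2 called any higher. By the choice of sites these peaks are in the second table and not in the first, so the shares describe a selected set. Both tables hold the same Treg and conventional T cell libraries, so the added control and R397W libraries may have brought these peaks in. Peaks brought in by high control values would favour falls in R397W. How each peak entered was not tested, so the counts and p-values here are no independent support for a fall. Without the second control library 2 were lower, without the first control library 8 were lower and 1 higher, and with DESeq2 10 were lower.

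Among the sites lower in R397W, the largest changes were at peaks assigned to Gxylt2, a glucoside xylosyltransferase gene, and to Olfr183, an olfactory receptor gene. The p-values of these peaks, like the counts above, come after a selection that can favour falls. The Gxylt2 peak (chromosome 6, 100792030 to 100792430) had 0 and 2.77 in R397W against 35.5 and 48.4 in control Treg cells, and 13.7 and 15.8 in Treg against 1.41 and 0 in conventional T cells. Its adjusted p was 0.00728, and a fold change is not given since 1 R397W library is at 0. At Olfr183 0 and 2.77 stood against 35.5 and 31.1 (adjusted p = 0.0116). These 2 of the 10 named peaks kept their call under every alternative that tested them. Nek6, a mitotic kinase, had 8.55 and 1.39 against 26.2 and 62.3 (adjusted p = 0.0199; adjusted p = 0.226 without the second control library). For Foxp3, these 138 sites were called higher in effector Treg cells at 56 (40.6%) and lower at 12 (8.7%). Of all Foxp3 peaks 15.0% were higher and 10.8% lower, and of the other 2778 sites 11.2% and 8.17%. In Batf-/- Treg cells 11 of the 138 were lower (7.97%) and none higher, whereas of the other 2778 sites 1.87% were lower and 0.72% higher. Of all Foxp3 peaks 3.91% were lower and 0.547% higher.

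Of the assigned sites, 1218 (43.8%) belonged to a gene that also had a shared Foxp3 peak and 1564 to a gene that had none. Several genes central to Treg cells had shared sites only. Ctla4 had 5 Foxp3 peaks and Bach2 had 9, each of them on BATF or IRF4. No BATF/IRF4-free site was assigned to Il7r, Ccr7, S1pr1 or Klf2. Foxp1 (9 BATF/IRF4-free and 12 shared peaks), Ets1 (4 and 7), Ikzf2 (5 and 5) and Icos (4 and 6) carried both kinds.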

How the data were processed

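Per the labels, the samples are chromatin immunoprecipitations of Foxp3, BATF and IRF4 from sorted mouse CD4 T cells. The authors deposited 1 table of normalised peak signal per experiment; their processing notes list mm10 and the tools DiffBind 3.12.0, edgeR 3.38.4, MACS2 2.2.7.1 and Bowtie2 2.4.1 (per the submitters' processing notes), with roles and filters not given in the sources used here. Input libraries were not used. Within a library the deposited values are whole multiples of what 1 read is worth, which gave back whole reads; total depth is unknown, and a change common to most peaks is scaled away. For comparisons, limma 3.58.1 (R 4.3.3) was run on log2 of the deposited signal plus 1 with a mean-dependent prior for the variance, all 8 Foxp3 libraries in 1 fit (the 4 libraries of the R397W experiment in another), two-sided, with Benjamini-Hochberg adjustment over all peaks of a table. The fits were tested on simulated data. Alternatives were edgeR 4.0.16 and DESeq2 1.42.0 on recovered reads, other pseudocounts, filters, scalings and membership rules, and each library left out; with 1 library left out, the lone library of a group is assumed to vary like the other groups. Each peak was given the closest protein-coding gene, if its body lay within 100000 bp (RefSeq GRCm38.p6); this need not be the gene it regulates. Positions are those of the deposited tables, whose first base (0 or 1) is not settled; if touching ends were no overlap, 2917 sites would result. Named sites were the 10 strongest, up to 8 per direction and Foxp3 comparison among sites above the median level, called and with groups that do not overlap, up to 3 genes per list, the strongest site of each of a fixed set of genes, the 3 genes with the most sites and 10 called sites of the second BATF table; 1 gene so named is not reported here. The sites and the gene lists were chosen with earlier results of these data known. No genome sequence was at hand, so only promoter windows could be read.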

Additional observations from a re-analysis of the deposited data

How the results depend on the processing

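With DESeq2, 3 sites were higher and 19 lower in Batf-/- Treg cells, 159 were lower in effector Treg cells, and 10 BATF peaks were lower in R397W with a median log2 fold change of -0.865. Quantile normalisation gave 7 and 33 for Batf-/-, 422 lower in effector Treg cells, and 12 lower with a median of -0.74 for R397W; it moved the median of all peaks to 0.132 for R397W, against -0.02 otherwise, and the median over BATF/IRF4-free sites to -0.0448 for effector over central Treg cells. Among peaks above the 25th percentile the counts were 8 and 30 for Batf-/-, 206 higher in effector Treg cells and a median of -0.773 for R397W. There the ratios of medians were 0.856 in effector, 0.841 in central, 0.589 in Batf-/- and 0.557 in wild-type Treg cells, 3.98% of sites lay within 1000 bp of a start and 76.3% in gene bodies. Fits of only the 4 libraries of a comparison gave 7 higher in Batf-/- and 391 lower in effector Treg cells. For R397W the median was -0.861 with edgeR, -0.843 with a pseudocount of 4 and -0.826 where only an overlap of 50% removed a site, and 7 were lower with no trend. With no BATF or IRF4 peak within 1000 bp, 1.44% of sites were within 1000 bp of a start. Without genes of 5 or more sites, an alternative chosen after seeing the data, 10 sites were higher in Batf-/- and the median was 0.0532. The cause of these moves was not tested, beyond the fewer peaks or libraries that some settings hold.

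With 1 library left out, sites higher in Batf-/- numbered 12 to 69 and lower 10 to 145, with a median of 0.0229 to 0.152; those higher in effector Treg cells numbered 213 to 278 and lower 142 to 160; BATF peaks higher in R397W numbered 0 to 1 and lower 2 to 20, with a median of -0.942 to -0.843. Uncalled values changed sign at Il2ra (Batf-/-, 0.01 under quantile normalisation, -0.17 to 0.15 without 1 library), Ets1 (effector, -0.01 with DESeq2, -0.38 to 0.46), Polr2a (Batf-/-, -0.22 to 0.59), Ikzf2 (Batf-/-, -0.51 to 0.1) and Tgfbr2 (Batf-/-, -0.08 to 0.33). The replicate block gave 18 higher and 65 lower in Batf-/- and 367 and 240 in effector Treg cells; deviations of same-numbered libraries correlated at 0.0761 and 0.139 over 2 pairs each, which with 2 pairs does not show whether the numbers pair the libraries, and the labels do not say. No paired analysis was possible for R397W because the numbers of the control columns do not match the labels. Of named calls, 36 of 40 for effector over central, 2 of 15 for Batf-/- and 2 of 10 for R397W held under every alternative run. edgeR called all 63 sites lower and 13 of the 20 higher in Batf-/-. The median site had 14 to 42 reads per library, which limits the precision of single sites.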

Other observations

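At the 138 sites with a peak in the second BATF table, further BATF peaks lower in R397W, chosen after their values were seen, lay near genes of signalling and transcription. The selection of the 138 sites can favour such falls, so the R397W p-values are no independent support for them. The peak assigned to Itpr1, a calcium channel of the endoplasmic reticulum, had 10.3 and 19.4 normalised reads in R397W against 61.7 and 83.0 in control Treg cells (log2 fold change -2.26, SE 0.45, adjusted p = 0.00728 with limma). The peak assigned to Stat4 had 12 and 1.39 against 44.7 and 38.0 (-2.93, adjusted p = 0.0252 with limma). It overlies a BATF/IRF4-free Foxp3 site that had 39.3 and 53.6 in effector against 13.3 and 9.64 in central Treg cells (1.93, adjusted p = 0.000223 with limma).

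Runx2, a Runx family factor, and Ikzf3, the factor Aiolos, had BATF/IRF4-free sites that rose in effector Treg cells, likewise chosen after their values were seen. The Runx2 site had 29.1 and 27.1 in effector against 6.66 and 5.93 in central Treg cells (2.00, adjusted p = 0.00021 with limma). The Ikzf3 site had 35.5 and 38.6 against 10.7 and 6.67 (2.01, adjusted p = 0.00134 with limma). In Batf-/- the Ikzf3 site had 18.3 and 5.15, against 41.5 and 38.4 in wild-type Treg cells (-1.91, adjusted p = 0.0104 with limma). The second BATF table has a peak over the Ikzf3 site (chromosome 11, 98480033 to 98480433), with 49.6 and 63.8 normalised BATF reads in R397W against 27.8 and 27.7 in control Treg cells (adjusted p = 0.125 with limma), and 31.6 and 25.6 in Treg cells of the first BATF table's samples.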
